A study of Rattus norvegicus with 10 samples.

Results

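The let-7 family was read on arrays of the medial prefrontal cortex (mPFC) of rats given saline or chronic morphine. The 8 members are the guide strands rno-let-7a, rno-let-7b, rno-let-7c, rno-let-7d, rno-let-7e, rno-let-7f and rno-let-7i together with rno-miR-98, written below without the rat prefix. They were chosen by probe name, without the opposite strands, and they made up 8 of the 679 rat miRNA probes on the array. The animals were 2-month-old wild-type Sprague Dawley rats. The chronic morphine group (n = 5) was injected intraperitoneally 2 times a day for 5 days, with 10 mg/kg per injection on day 1, 20 mg/kg on day 2, 30 mg/kg on day 3 and 40 mg/kg on days 4 and 5. The saline group (n = 5) was injected with saline on the same schedule, and neither group carried a transgene or a deletion. Each rat gave 1 array of total RNA, so neurons, glia and blood vessels were measured together, and fewer cells of a type cannot be told apart from less RNA per cell. The question was which members differed between the groups, and whether the members kept their proportions to each other.

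A miRNA pairs with its target transcripts mainly through its seed, the stretch near its 5′ end, and lowers their stability and translation. The let-7 family was first described in C. elegans, where it times larval development, and in mammals its mature forms rise as neural progenitors differentiate, while the protein LIN28 blocks the maturation of its precursors. In the adult brain it is among the abundant miRNA families, and let-7 has been described in mouse and human cells to repress the mu-opioid receptor, the main receptor of morphine.

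The 8 mature strands are shown because their likeness bears on how far 1 probe can be read apart from another. The sequences are those of RefSeq for the GRCr8 assembly, written 5′ to 3′, with the seed (bases 2 to 8) in capitals, and all 8 members matched.
let-7a: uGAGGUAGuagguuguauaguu
let-7b: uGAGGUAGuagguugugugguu
let-7c: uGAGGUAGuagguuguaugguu
let-7d: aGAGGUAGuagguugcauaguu
let-7e: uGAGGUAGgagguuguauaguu
let-7f: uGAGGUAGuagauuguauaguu
let-7i: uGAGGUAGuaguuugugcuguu
miR-98: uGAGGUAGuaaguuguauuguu
Each was 22 bases long and all 8 had the seed GAGGUAG. Counted from 1 at the 5′ end, with the base of let-7a first, let-7c differed from let-7a by A19G alone, let-7e by U9G alone and let-7f by G12A alone. Let-7b differed by A17G and A19G, let-7d by U1A and U16C, and miR-98 by G11A and A19U. Let-7i was the farthest, with G12U, A17G, U18C and A19U, and shared A17G with let-7b. The sequences of the capture probes were not used here. Signal of 1 member on the probe of another cannot be separated in these data, so each value below is the signal of a probe.

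The 8 strands came from 11 loci. On chromosome 17, let-7a (chr17:16320145-16320166), let-7f (chr17:16320508-16320529) and let-7d (chr17:16322273-16322294) lay within 2.13 kb on the plus strand, in the span of the lncRNA gene LOC120097935. On chromosome 7, let-7c (chr7:118683636-118683657) and let-7b (chr7:118684044-118684065) started 408 bases apart. On chromosome X, the second copy of let-7f (chrX:24460052-24460073) and miR-98 (chrX:24460663-24460684) started 611 bases apart in the span of the protein-coding gene Huwe1. Let-7e (chr1:67350243-67350264, in the span of Spaca6) started 173 bases from miR-99b and 446 bases from miR-125a. The second copy of let-7a (chr8:50805219-50805240, in the span of the lncRNA gene Lnc215) lay 6.91 kb from miR-100, and the second copy of let-7c (chr11:29688127-29688148, in the span of the lncRNA gene LOC103693508) lay 44.46 kb from miR-125b. Let-7i (chr7:60527935-60527956, minus strand, in the span of LOC134479799) had no other member or listed neighbor beside it. Whether these positions are exonic or intronic was not examined here. A probe for a mature strand reads all loci of that strand together.

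Before the members are described, the tissue label was examined. The summed level of 8 miRNAs known to mark brain neurons was 587 to 1496 scaled intensity units over the saline arrays (median 1198) against 34974 to 115932 over the morphine arrays (median 70173). On each saline array 2 of the 8, miR-124 and miR-138, reached an intensity of 30. The defining markers miR-9, miR-128, miR-137, miR-153, miR-218a and miR-129 were below 30 on all 5 saline arrays. The summed oligodendrocyte list (2 probes) and endothelium list (2 probes) were at 0 on every saline array, counting negative values as 0, with morphine medians of 527 and 1020. The blood and immune list (6 probes) summed to 28.3 to 221 on the saline arrays and 1421 to 8547 on the morphine arrays. The connective tissue and vessel wall list (6 probes, among them miR-199a and miR-214) went the other way. It summed to 11534 to 42664 on the saline arrays and 1471 to 5101 on the morphine arrays. In the limma fit described below, 4 of its 6 probes were lower in the morphine group. Its vessel wall probes miR-143 and miR-145 did not pass (limma adjusted p = 0.475 and 0.0876). The skeletal muscle list (4 probes) was at 77.7 to 1695 and 27.6 to 194, but miR-1 and miR-133a were below 30 on every array. Of the other skeletal muscle probes, miR-133b was lower in the morphine group (limma adjusted p = 0.00446) and miR-206 did not pass (adjusted p = 0.0629). The arrays labelled saline thus lacked most defining markers of the labelled tissue, while each morphine array carried 7 or 8 of the 8 neuron markers. The part of this in the values below was not tested, and treatment and the makeup of the RNA cannot be told apart. The median local background of an array was 84 to 348 for saline and 63 to 141 for morphine, and 180 to 281 rat miRNA probes against 260 to 419 reached 30. After background subtraction and before scaling, the median negative control of an array was -186 to -27.25 for saline and -67 to 9.5 for morphine.

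Values below are background-subtracted intensities, averaged over 4 spots and scaled so that the arrays share 1 median over 120 well-detected miRNA probes. The results of the limma fit showed that 5 of the 8 members, let-7c, let-7d, let-7e, let-7f and miR-98, were higher in the chronic morphine group at a Benjamini-Hochberg adjusted p under 0.05, while no member was lower. Let-7a, let-7b and let-7i did not pass. The 5 were 62.5% of the members. Of all 301 rat miRNA probes tested, 98 (32.6%) passed as higher and 35 (11.6%) as lower, which became 69 and 49 with quantile normalization and 46 and 54 with cyclic loess. Under either of these, 1 of the 8 members, let-7e, still passed, and leaving out single arrays gave 0 to 5. With single arrays left out, 75 to 100 of all 301 probes passed as higher and 27 to 39 as lower. The median log2 fold change, morphine over saline, was 1.79 over the 8 members and 0.45 over all tested probes. In 1 member, let-7e (12.5%), every morphine array lay above every saline array, against 21.3% of all tested probes (8.31% the other way).

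**Figure D1:**
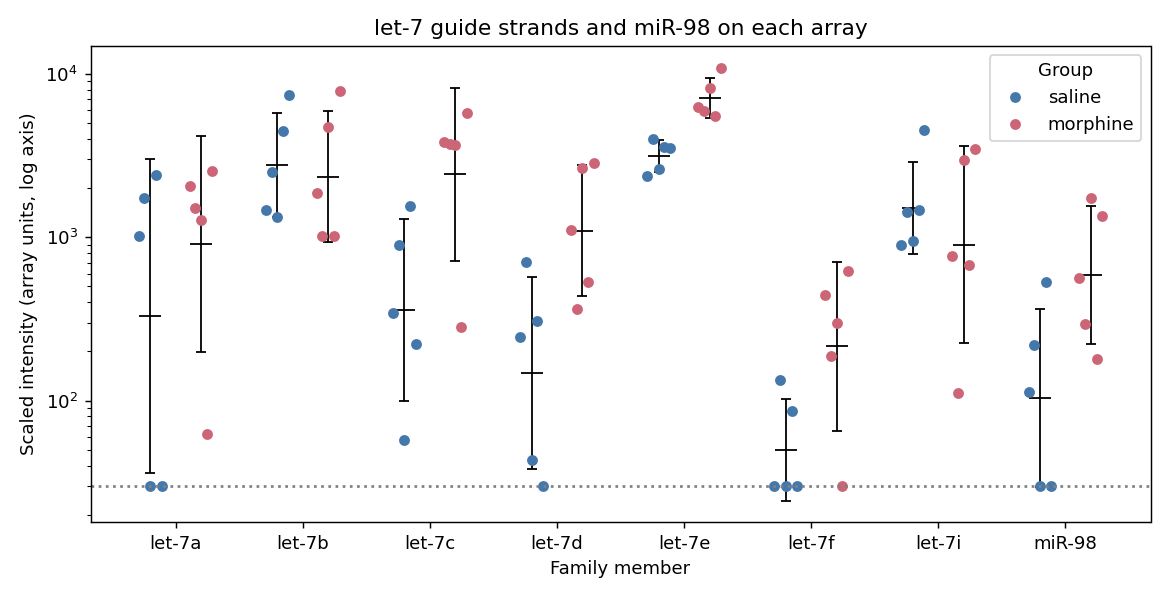
Scaled intensity of each member (log axis, array units) on the 5 saline arrays (blue) and 5 morphine arrays (red), ordered by replicate number within a group; values below 30 are drawn at 30 (dotted line), and the bars give the mean ± SD of the log2 values. The let-7e values of the groups are separate, at 2376 to 3992 and 5528 to 10943, and those of the other 7 members overlap.

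Let-7e, encoded with miR-99b and miR-125a, had the highest mean log2 level and the smallest SD of the log2 values in both groups. In the saline group its step above let-7b was within their spread, and let-7b had the higher mean intensity on the linear scale (3445 against 3212). Its scaled intensity read 2376, 3992, 2605, 3561 and 3526 from the first to the fifth saline array. The morphine arrays, in the same order, read 6284, 5940, 8230, 5528 and 10943. The lowest morphine array thus stood above the highest saline array. The log2 fold change was 1.18 ± 0.403 (SE, limma adjusted p = 0.0307, n = 5 per group). The SD of its log2 values was 0.32 for saline and 0.41 for morphine, against a median SD over all tested probes of 0.83 and 0.98. The other 7 members each had a larger SD than these medians in both groups.

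Let-7c, the sister of let-7b on chromosome 7, gave 346, 897, 57.1, 1553 and 221 on the saline arrays and 3807, 3743, 3653, 283 and 5744 on the morphine arrays. On 4 of the 5 morphine arrays it was above every saline array, while morphine array 4 was below 3 of them. Between the groups this gave a log2 fold change of 2.75 ± 0.963 (SE, limma adjusted p = 0.0330). It was 2.03 to 3.05 over the other settings, and the call was lost in 8 of 20.

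Let-7d, known in cell studies to repress the dopamine D3 receptor, gave 246, 709, 43.0, 307 and 24.7 on the saline arrays and 1105, 364, 2650, 532 and 2832 on the morphine arrays. Morphine arrays 2 and 4 lay below saline array 2, so the groups overlapped. The log2 fold change was 2.90 ± 0.902 (SE, limma adjusted p = 0.0204), and 1.48 with normexp (adjusted p = 0.0527). The call was lost in 7 of 19 other settings.

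MiR-98, the let-7 relative encoded beside let-7f on chromosome X, gave 113, 218, 28.4, 530 and -40.0 on the saline arrays and 561, 294, 1744, 179 and 1348 on the morphine arrays. It was below 30 on saline arrays 3 and 5 and above 30 on all morphine arrays. On saline array 5 the median negative control was at -186 before scaling, below the unscaled -34.5 of miR-98. Its log2 fold change was 2.50 ± 0.878 (SE, limma adjusted p = 0.0330), and 0.93 with normexp (adjusted p = 0.205). With the median negative control of each array subtracted, the log2 fold change of miR-98 was 1.30 (limma adjusted p = 0.137). The call was lost in 10 of 19 other settings.

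Let-7f, encoded in both the chromosome 17 and the chromosome X cluster, was the dimmest member. It gave -199, 134, -11.4, 85.9 and -147 on the saline arrays and 443, 188, 298, 6.39 and 625 on the morphine arrays. It reached 30 on 2 saline arrays and 4 morphine arrays, so its fitted value depends on the floor of 30. The log2 fold change was 2.11 ± 0.788 (SE, limma adjusted p = 0.0437). Its negative value on saline array 1 came from 2 of its 4 spots, at -581 and -390 beside 65 and 32, where the local background reached 988 against an array median of 111. With the median background of the array taken off every spot instead, the log2 fold change was 1.33 (limma adjusted p = 0.267). It was 0.46 without background subtraction (adjusted p = 0.609), 0.33 with normexp (adjusted p = 0.658) and 0.19 with cyclic loess (adjusted p = 0.862), and the call was lost in 12 of 19 other settings.

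Each of these 5 calls was lost when 1 of several single arrays was left out, with 1 degree of freedom fewer in the fit. Let-7e passed in 6 of the 10 fits (adjusted p 0.0204 to 0.0778) and was lost without saline 1 or 3 or morphine 3 or 5. Let-7d also passed in 6 (0.00838 to 0.0560) and was lost without saline 3 or 5 or morphine 3 or 5. MiR-98 passed in 4 (0.0115 to 0.0871), let-7c in 3 (0.00540 to 0.0844) and let-7f in 2 (0.00301 to 0.114). MiR-98 passed without saline 2 or 4 or morphine 2 or 4. Let-7c passed without saline 2 or 4 or morphine 4, and let-7f without saline 2 or morphine 4. For each of the 5 the log2 fold change stayed above 0 in all 10 fits, and was 1.03 to 1.27 for let-7e and 2.09 to 3.53 for let-7c.

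Let-7a, let-7b and let-7i did not pass the test. Let-7a, whose mature strand is the same in C. elegans and mammals, gave 1014, 1752, 20.5, 2423 and 13.3 on the saline arrays and 2069, 1513, 1277, 62.4 and 2535 on the morphine arrays. Within each group most arrays were above 1000, and saline arrays 3 and 5 and morphine array 4 stood far below them. The log2 fold change was 1.47 ± 1.40 (SE, limma adjusted p = 0.439), with an SD of the log2 values of 3.19 in the saline group.

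Let-7b, known in mouse neural stem cells to repress Tlx and cyclin D1, gave 1467, 2527, 1330, 4448 and 7451 on the saline arrays and 1865, 1013, 4733, 1024 and 7898 on the morphine arrays. The groups covered nearly the same range, and the log2 fold change was -0.24 ± 0.696 (SE, limma adjusted p = 0.796). Its sign changed to 0.11 with cyclic loess normalization, to 0.059 when the arrays were scaled over all detected probes, and to 1.98 (adjusted p = 0.237) when only the spots of blocks 19 to 36 were read. No direction is given for let-7b.

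Let-7i gave 897, 1424, 947, 1462 and 4533 on the saline arrays and 763, 112, 2980, 676 and 3451 on the morphine arrays. Morphine arrays 1, 2 and 4 lay below every saline array and morphine arrays 3 and 5 above 4 of them. Let-7i had a log2 fold change of -0.75 ± 0.854 (SE, limma adjusted p = 0.524), which became 0.00120 without morphine array 2.

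**Figure D2:**
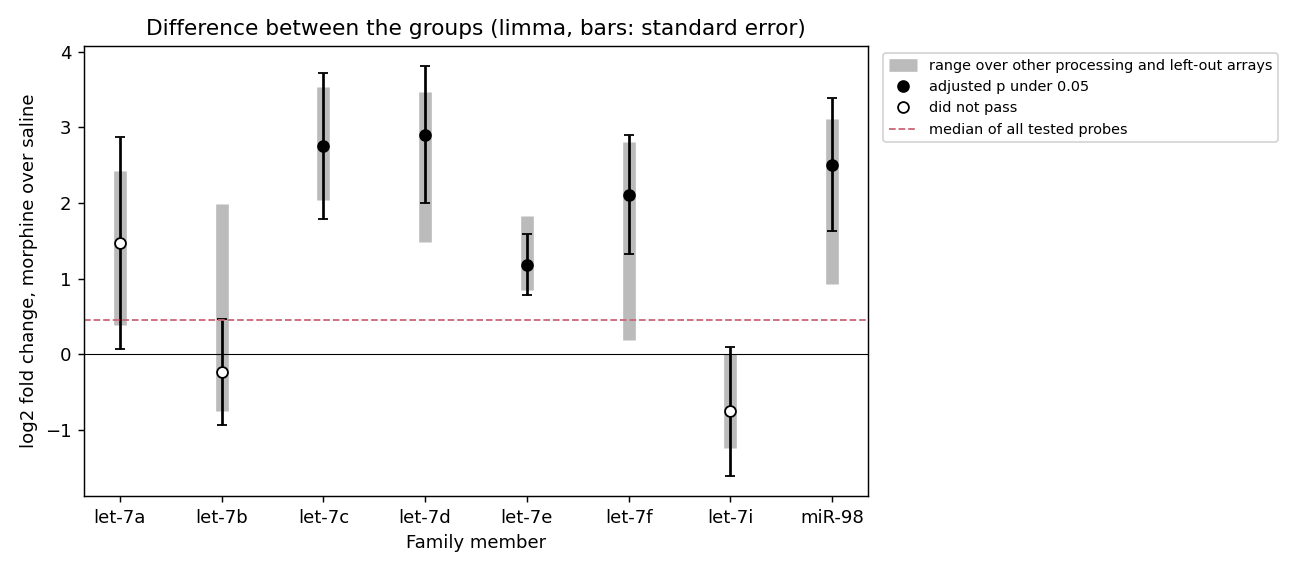
Log2 fold change of each member, morphine over saline, with its standard error from limma (n = 5 per group); filled points passed at an adjusted p under 0.05, gray bars span the values under the other processing settings and with each array left out, and the dashed line is the median of all tested probes (0.45). The 5 filled points lie between 1.18 and 2.90, and the bars of let-7b and let-7i reach across 0.

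The order of the members' probe signal was the same at the top and at the bottom in both groups. Let-7e had the highest mean log2 level in each group, at 11.62 for saline and 12.80 for morphine, and let-7f the lowest, at 5.64 and 7.75. In the saline group the order was let-7e, let-7b, let-7i, let-7c, let-7a, let-7d, miR-98 and let-7f. Neighbors in this order differed by more than the SD of their within-array difference only between let-7b and let-7i and between let-7i and let-7c. In the morphine group the order was let-7e, let-7c, let-7b, let-7d, let-7a, let-7i, miR-98 and let-7f. Here the steps from let-7e to let-7c, from let-7b to let-7d and from miR-98 to let-7f exceeded that spread. Probes bind their targets with different strength, so this is an order of signal and not of molecules.

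The share of a member in the summed signal of the family needs no scaling between arrays. The family summed to 5030 to 15770 scaled units on the saline arrays (median 11653) and 8292 to 35376 on the morphine arrays (median 16897), which was 2.28% to 4.90% and 2.57% to 6.50% of the signal of all rat miRNA probes. Let-7e took the largest share on 8 of the 10 arrays, and let-7b on saline arrays 4 and 5. Let-7e held 34.0% ± 11.7 (SD, n = 5) of the family signal in saline rats and 42.4% ± 14.7 in morphine rats, a difference of 8.43 points (two-sided exact permutation test, p = 0.357, unadjusted, 1 of 8 shares compared).

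The let-7b share was 22.7%, 21.7%, 26.4%, 31.0% and 47.2% over the saline replicates, against 11.0%, 7.69%, 18.5%, 12.4% and 22.3% over the morphine replicates. Morphine array 5 alone overlapped the saline range. The difference was -15.4 points (exact permutation p = 0.0159). With only the spots of blocks 1 to 18 it was -23.9 points (exact p = 0.00794), and with only those of blocks 19 to 36 it was -0.0371 points (exact p = 1). The gap in the let-7b share thus lay in 1 print copy of the array and was near 0 in the other.

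The let-7i share was 13.9%, 12.2%, 18.8%, 10.2% and 28.7% on the saline arrays and 4.52%, 0.850%, 11.7%, 8.15% and 9.75% on the morphine arrays. Morphine array 3 overlapped the saline range, and the difference was -9.78 points (exact permutation p = 0.0159). In blocks 1 to 18 it was -5.97 points (exact p = 0.214), and in blocks 19 to 36 it was -16.6 points without overlap (exact p = 0.00794).

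Let-7c took 5.28% ± 4.14 (SD, n = 5) of the family signal with saline against 17.0% ± 9.40 with morphine (exact permutation p = 0.0397). Let-7d took 2.61% ± 2.39 and 6.82% ± 2.77 (exact p = 0.0397), and let-7f 0.350% ± 0.518 and 1.41% ± 0.925 (exact p = 0.0397). The let-7d share missed p = 0.05 in 6 of 9 other settings, with 2.50 points by normexp (exact p = 0.0952) and 2.85 points in blocks 19 to 36 (exact p = 0.190). The let-7c share missed it by normexp (exact p = 0.0556) and in blocks 19 to 36 (exact p = 0.111), and both missed it with the replicate block, which cannot go below 0.0625. The let-7f share kept an exact p under 0.05 in 1 of 9 other settings, blocks 19 to 36 alone. It missed it with values below 30 set to 30 (exact p = 0.0794), with the median of the spots (exact p = 0.183) and with the array's median background (exact p = 0.706). The let-7f share turned to a difference of -0.554 points without background subtraction and -0.677 points with normexp background correction. Without 1 array the shares of let-7c, let-7d and let-7f each missed p = 0.05 in 7 of 10 cases, with exact p up to 0.0794, where 4 arrays against 5 allow 0.0159 at the least. For let-7c and let-7f the other 3 cases were without saline 2, saline 4 or morphine 4, and for let-7d without saline 1, saline 2 or morphine 2.

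MiR-98 took 1.58% ± 1.42 (SD, n = 5) and 3.67% ± 1.90 of the signal (exact permutation p = 0.0635). This difference of 2.09 points was 0.284 points with normexp (exact p = 0.786) and 0.814 points without background subtraction (exact p = 0.460). With 1 array left out the exact p was 0.0159 without saline array 4 and 0.0635 to 0.127 in the other 9 cases. Let-7a took 9.62% ± 8.58 and 7.33% ± 4.75 (exact p = 0.627). The p-values of the 8 shares were not adjusted, since the shares of 1 array sum to 100% and are not independent. In none of the 8 shares were the groups free of overlap.

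**Figure D3:**
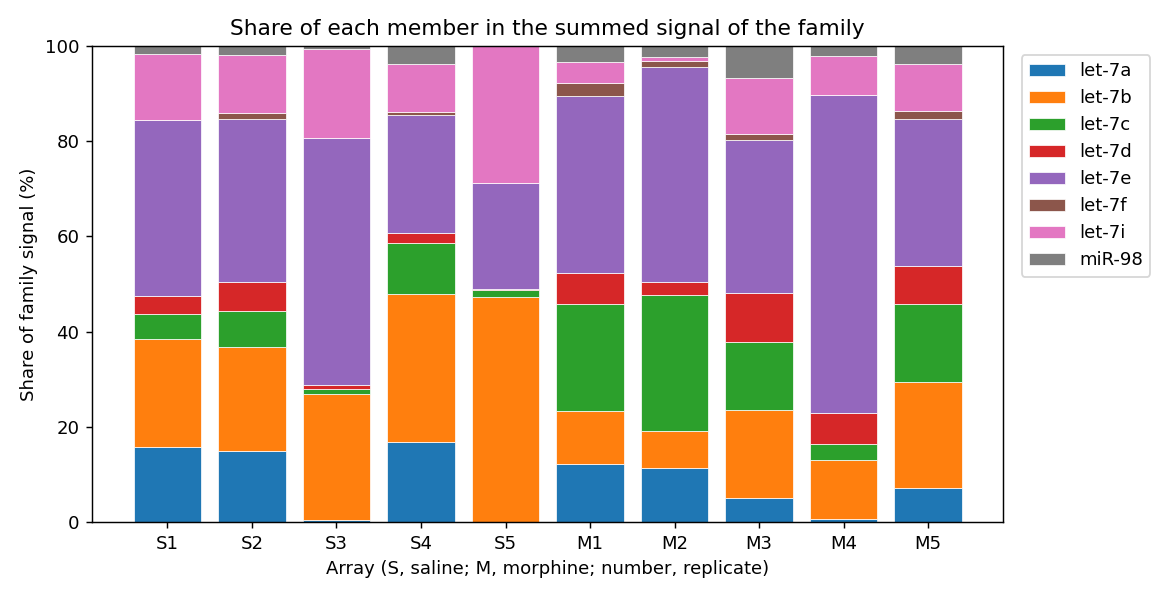
Share of each member in the summed signal of the family (%, stacked to 100%), on saline arrays S1 to S5 and morphine arrays M1 to M5. Let-7b fills 21.7% to 47.2% of the saline bars and 7.69% to 22.3% of the morphine bars, and let-7e reaches 66.7% on morphine array 4.

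The ratios of members on the same array were compared for all 28 pairs. In 3 pairs the groups did not overlap, beside 28.4% of the 45150 pairs of all tested probes. The 28 pairs share 8 probes, and the count was 5 without saline array 2 or in blocks 1 to 18, and 9 without morphine array 4. Leaving out an array makes overlap less likely for any pair, and the share over all tested pairs was not counted in these settings. The 3 pairs were let-7b over let-7d, let-7b over miR-98 and let-7d over let-7i, each with an exact permutation p of 0.00794, the smallest that 5 arrays against 5 allow.

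The log2 ratio of let-7b over let-7d was 1.83 to 7.96 on the saline arrays and 0.75 to 1.48 on the morphine arrays, a difference of -3.14. For let-7b over miR-98 it was 3.07 to 7.96 and 1.44 to 2.55, a difference of -2.74. For let-7d over let-7i it was -7.24 to -1.01 and -0.34 to 1.70, a difference of 3.65. Let-7d and miR-98 were at the floor on saline array 5, so the outer saline values depend on it. In all, 9 of the 28 ratios had an unadjusted exact p under 0.05, beside 48.5% of the ratios of all tested probes, so this count sets nothing apart in the members.

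**Figure D4:**
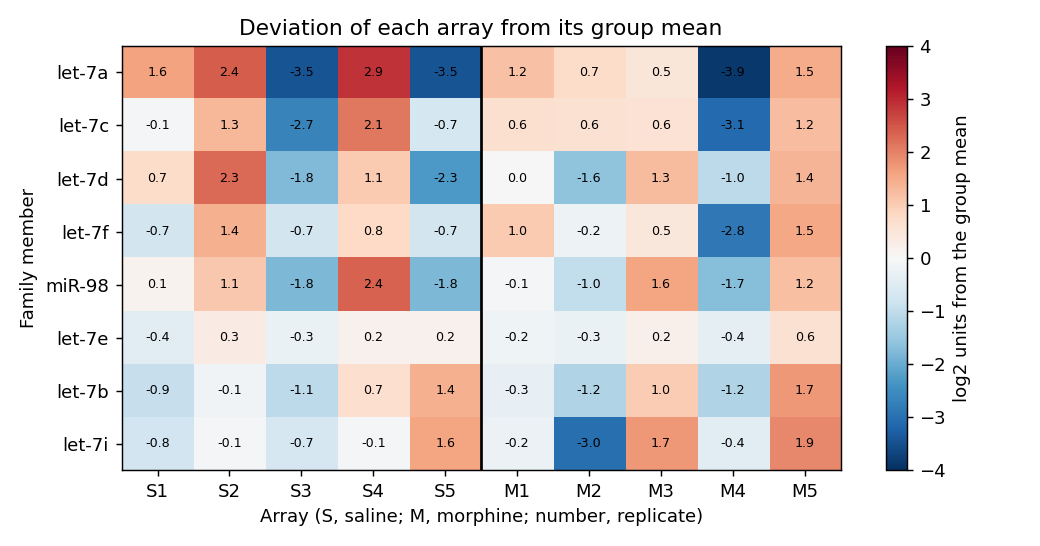
Deviation of each array from its group mean (log2 units, red above and blue below) for the 8 members, saline arrays S1 to S5 left of the line and morphine arrays M1 to M5 right of it. On S5 let-7b and let-7i are at 1.4 and 1.6 while let-7a is at -3.5, and on M4 let-7a, let-7c and let-7f are at -3.9, -3.1 and -2.8 while let-7e is at -0.4.

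Within the groups the members also moved unevenly from array to array. On saline array 5 let-7b and let-7i were at their highest saline values, 7451 and 4533, while let-7a, let-7d and miR-98 were at their lowest, 13.3, 24.7 and -40.0. On morphine array 4 let-7a, let-7c, let-7f and miR-98 were at their lowest morphine values, while let-7e, also at its lowest, still read 5528. On morphine array 2 let-7i fell to 112 while let-7c was at 3743. Array 5 gave the highest morphine value of all members except miR-98, which was highest on array 3.

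As a description, the log2 deviations from the group means were correlated over the 10 arrays. Among let-7a, let-7c, let-7d, let-7f and miR-98 the 10 correlations were 0.66 to 0.91 (median 0.816), and let-7b and let-7i correlated at 0.864. Between let-7b or let-7i and those 5 members they were -0.055 to 0.528 (median 0.325). These low values differed by group. Over the 5 saline arrays alone they ran from -0.441 (let-7d with let-7i) to 0.399 (let-7b with let-7c). Over the 5 morphine arrays they ran from 0.16 (let-7a with let-7i) to 0.965 (let-7b with let-7d). Let-7d with let-7i, the lowest in saline, was at 0.943 in morphine. Over all 10 arrays let-7e correlated with the other members at 0.384 to 0.872, highest with let-7b. This grouping was chosen after the values were seen, the arrays share 1 scaling, and no test was made of it. The 4 pairs that differ by 1 base had a median correlation of 0.638, and the 24 other pairs 0.635. Let-7a and let-7c, 1 base apart, correlated at 0.914, and let-7a and let-7e, also 1 base apart, at 0.384.

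The 4 spots of a probe give the error within an array. In the 67 of 80 combinations of a member and an array with a mean of at least 100, the CV of the spots was 4.30% to 217% with a median of 25.3%. For let-7e it was 4.41% to 21.9%, and for let-7b 11.9% to 144%. The array is printed in 2 copies, blocks 1 to 18 and blocks 19 to 36, with 2 spots of each probe in each copy. The copies differed by more than 2-fold in 5 of the 9 arrays compared for let-7b, in 4 of 10 for let-7i and in 0 of 10 for let-7e. Over all detected probes such a gap was seen in a median of 24.5% of probes per array.

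On saline array 4 the spots of let-7b read 9803 and 4558 in the first copy, and -1 and -70 in the second. On the same array let-7i went the other way, with 238 and 357 in the first copy and 2771 and 1331 in the second. On morphine array 4 the let-7b spots read 490 and 387, then 2147 and 1789. For let-7b the SD of the unscaled spots was 2618, 4684 and 4776 on saline arrays 2, 4 and 5, beside an SD of 2067 between the unscaled means of the saline rats. For let-7e it was 379 to 572 on the saline arrays, beside an SD of 465 between the unscaled means of the saline rats. On the morphine arrays it was at most 1123, beside an SD of 1678 between the morphine rats. The unscaled group means of let-7e were 2977 and 7753. These are SDs of single spots, and a mean of 4 spots varies less. No member spot was saturated, with 12195 the highest foreground value.

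**Figure D5:**
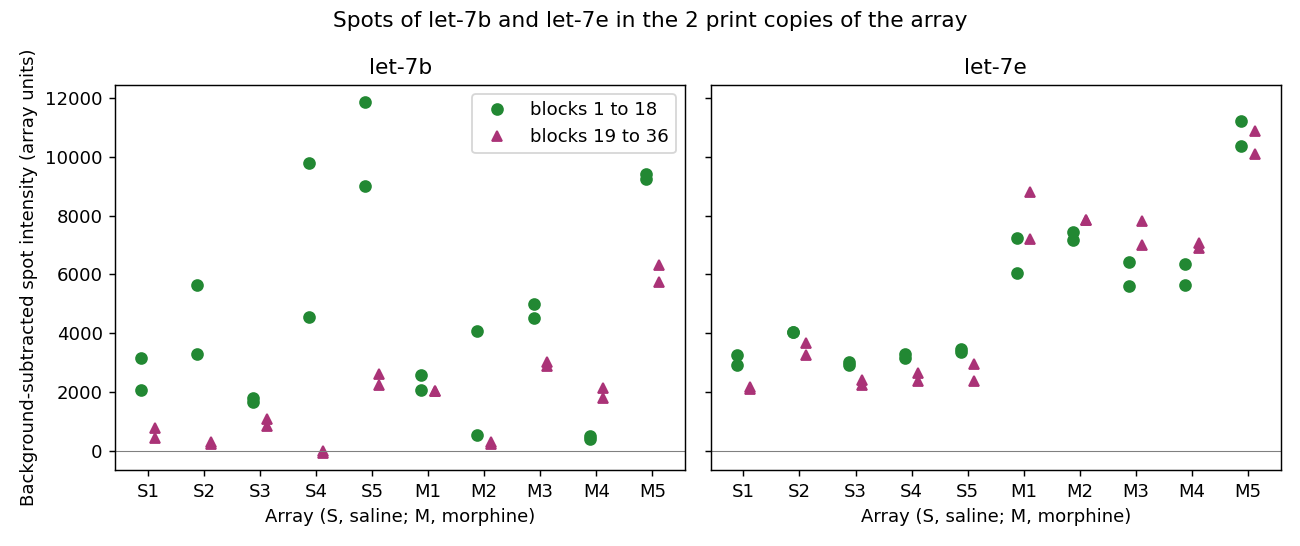
Background-subtracted intensity (array units, linear axis) of the 4 spots of let-7b (left) and let-7e (right) on saline arrays S1 to S5 and morphine arrays M1 to M5, with circles for blocks 1 to 18 and triangles for blocks 19 to 36. The let-7b spots of S4 run from -70 to 9803, while the let-7e spots of each array stay close together and those of all morphine arrays lie above those of all saline arrays.

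The 5 miRNAs listed as neighbors of let-7 loci did not pass the test. The positions above place miR-99b, miR-125a, miR-100 and miR-125b beside a member, and none was given for miR-99a. Of miR-99a, miR-99b, miR-100, miR-125a-5p and miR-125b-5p, 0 of 5 were called in either direction. Over all tested probes 32.6% passed as higher and 11.6% as lower. MiR-99b and miR-125a-5p, the neighbors of let-7e, had log2 fold changes of -0.26 ± 0.469 (SE, limma adjusted p = 0.677) and 0.43 ± 0.555 (adjusted p = 0.571). MiR-125b-5p, beside the second copy of let-7c, gave 3873 to 29726 on the saline arrays and 5893 to 34438 on the morphine arrays, with a log2 fold change of 0.68 (adjusted p = 0.439). MiR-99a gave 0.99 (adjusted p = 0.420) and miR-100 -1.04 (adjusted p = 0.433). Of the 10 probes for opposite strands of the let-7 and miR-98 precursors 4 could be tested, and let-7a-2* was lower (log2 fold change -1.99, limma adjusted p = 0.0103) and let-7c-1* higher in the morphine group (2.11, adjusted p = 0.00506), while let-7d* (-0.57) and let-7i* (0.29) did not pass.

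Of the 293 other tested probes, those whose deviations from the group means were most like the mean of the 8 members were miR-27b (r = 0.949), miR-365 (r = 0.924), miR-23b (r = 0.916), miR-24 (r = 0.894) and miR-27a (r = 0.887). The correlations are over 10 arrays that share a scaling, and are given as a description. None of these 5 passed the test between the groups, with adjusted p-values of 0.144 to 0.886. The next 5 were nearly as close (r = 0.866 to 0.882), and 4 of them, named after their values were seen, passed as higher in the morphine group. These were miR-30e (log2 fold change 4.35), miR-26a (3.55), miR-30a (2.44) and miR-136 (4.00). For single members, miR-365 was the closest probe to let-7a, let-7c and miR-98, and miR-103 to let-7b and let-7e. No member had another member as its closest probe.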

How the data were processed

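MiRNA levels in the mPFC of 5 saline and 5 chronic morphine rats were measured on 1-colour miRCURY LNA arrays, with RNA labeled by Hy3 per the methods. The deposited intensity values are on a linear scale, as foreground and as background-subtracted values of each spot, and were not scaled by the authors. A deposited value table held 1 intensity per probe, equal to the median of its spots in all 35410 values (within 1e-06). How the local background was estimated is not stated in those sources, nor are slide and scan date, and no batch was examined.

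The 4 spots of a probe were averaged after background subtraction. For scaling, the median of 120 rat miRNA probes that reached 30 on every array served as the factor of an array (807 to 1281), and the geometric mean of all factors restored the unit. Scaled values under 30 were raised to 30 and log2 was taken. With limma (version 3.58.1, R 4.3.3), lmFit and eBayes were run on the 301 probes that reached 30 on 5 or more of the 10 arrays, and two-sided p-values were adjusted over all 301 by Benjamini-Hochberg. Negative values counted as 0 in the shares. The 8 shares and 28 pairs have raw p-values from exact permutation tests (SciPy 1.17.1, Python 3.11.15). The fit was tested on simulated data. Precision is limited by the number of arrays.

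The members, lists and tests were chosen with earlier results of these data known. All 8 members were named, with the 5 probes most like their mean, 5 listed neighbors, opposite strands and tissue markers. Groups and replicate numbers came from the labels. Whether same-numbered arrays deviate together was checked and is given with the sensitivity of the results. Alternatives covered scaling, background, floor, filter, model, block, single arrays and, chosen after seeing the data, the print copies and the array background. The 2778 unnamed probes were not used.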

Additional observations from a re-analysis of the deposited data

Results flagged for a closer look

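In 2 of 32 group and member combinations tested, covering log2 levels and shares, 1 array stood far from the other 4 by Dixon's test, which chance gives in about 1 in 20 groups. The log2 level of let-7a on morphine array 4 was 5.96, with the other morphine arrays at 10.32 to 11.31, and the gap was 0.815 of the range. The log2 level of let-7c on the same array was 8.15, with the others at 11.83 to 12.49, and the gap was 0.850 of the range. Let-7e on that array was 5528, the lowest morphine value. Without this array the count of members past the limma test stayed at 5, and the log2 fold change was 3.53 for let-7c. The cause was not tested.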

How the results depend on the processing

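The count of members past the limma test, 5 as processed, was 0 with the replicate block, 1 with quantile or cyclic loess normalization, with no filter on low probes or by the methods' t-test, 2 with normexp background correction, a negative-control baseline or only probes at 30 or more on all arrays (where 4 members are not tested), and 3 without background subtraction, with a floor of 100, with blocks 19 to 36 alone or with the array's median background. Leaving out 1 array gave 0 to 5, with 0 without saline 3, morphine 3 or morphine 5, 1 without saline 1 or 5, 2 without morphine 1 and 3 without morphine 2. The cause was not tested. Without saline 3, morphine 3 or morphine 5, 86, 75 and 76 of all 301 tested probes passed as higher, and 31, 27 and 28 as lower. With the replicate block 81 of 301 passed as higher and 26 as lower, and by the methods' t-test 17 and 8. With no filter it was 75 and 25 of 679. Dropping every probe that fell below 30 on any array left 120 to test, with 19 and 14. A floor of 100 gave 69 and 28 of 301, and no background subtraction 70 and 45. Blocks 19 to 36 alone gave 80 and 17 of 279, and the array's median background 94 and 37 of 303. Let-7e passed in 19 of 20 other settings (log2 fold change 0.84 to 1.82), all but the block (adjusted p = 0.0825). The members' median log2 fold change was 0.47 to 2.28, and 1.41 to 2.62 with arrays left out.

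Same-numbered arrays did not deviate together (r = -0.40 to 0.05, and 0 of 5 saline arrays correlated best with their own number). Slide and scan date are not stated, so whether same-numbered arrays were processed together is not known. With 5 pairs an exact test of a share cannot go below 0.0625.

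Quantile normalization moved the median of all probes from 0.45 to -0.25, cyclic loess to -0.27 and normexp to -0.21, and the calls, 98 higher and 35 lower as processed, became 69 and 49, 46 and 54, and 45 and 50. The negative-control baseline gave 92 and 81 of the 422 probes that it left to test, and scaling over all detected probes 102 and 22 of 301.

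Let-7b turned to 0.11 with cyclic loess, 0.059 with scaling over all detected probes and 1.98 in blocks 19 to 36, and was -0.67 to 0.12 with arrays left out. Let-7i was -1.24 to 0.00120. The let-7f share turned to -0.554 points without background subtraction and -0.677 points with normexp, and the let-7a share to 1.05 points in blocks 1 to 18. Members without overlap numbered 1 to 3 with arrays left out (2 without saline 2, 3 without morphine 4). Shares without overlap numbered 0 as processed, 1 in either print copy and 0 to 2 with arrays left out. Pairs without overlap numbered 3 as processed, 5 without background subtraction or in blocks 1 to 18, and 3 to 9 with arrays left out. Fewer arrays make overlap less likely for any probe, share or pair, and no share over all probes or pairs is given beside these counts.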
